A study of Mus musculus with 13 samples.

Results

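The proteasome subunit genes were examined in the cortex of mice of an amyloid-depositing line, with and without the gene for apolipoprotein E. Members were the genes named Psma, Psmb, Psmc or Psmd followed by a number alone, together with Psme1 and Psme2, with a mean of at least 0.5 RPKM (reads scaled by gene length and by the mapped reads of the library) over the 13 libraries. Among 20971 measured genes, 41 fitted the names and 39 passed this level. Psma8 and Psmb11, at 0.342 and 0.0638 RPKM, did not, and the member with the lowest mean was Psmb9 at 4.54 RPKM. The 5 immune members were Psmb8, Psmb9, Psmb10, Psme1 and Psme2, and the other 34 are called constitutive here.

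RNA was sequenced from whole cortex of 6-month-old C57BL/6 mice, 6 of genotype APPPS1 and 7 of genotype APPPS1;Apoe-/-. By their labels both groups carry the APPPS1 transgenes, so the comparison holds only mice labelled as amyloid-depositing. The transgenes are mutant human genes for the amyloid precursor protein and presenilin 1. They are driven by the mouse Thy1 promoter, which is active mainly in neurons. The Apoe-/- allele lacks Apoe in every cell type, and no mice without the transgenes were part of the design. Each library is taken as 1 mouse, as the design text counts them. Alignments per library ran from 28402328 to 77005806 in the APPPS1 group and from 18455493 to 34538031 in the APPPS1;Apoe-/- group.

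Apoe was at 463 to 670.4 RPKM in APPPS1 and at 4.01 to 6.35 RPKM in APPPS1;Apoe-/- libraries, as labelled. In APPPS1;Apoe-/- replicates 2 and 5, App was at 106 and 116 RPKM against 176 to 217 in the other 11 libraries, and Thy1 at 52.2 and 56.9 RPKM against 172 to 245. The values of members that passed the test, and of the subunit pairs, are therefore given with and without these 2 libraries. Whether these 2 libraries came from mice that carried the transgenes was not tested. All 6 markers of cortical excitatory neurons were above 0 in every library, summing to 85.4 to 113 RPKM. The 8 striatal markers summed to 263 to 702 RPKM in APPPS1 and to 342 to 749 RPKM in APPPS1;Apoe-/- libraries. Their median log2 change (APPPS1;Apoe-/- less APPPS1) was 0.50, with 1 of 8 called higher and 0 lower. Whether striatal content affected the subunit results was not tested.

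The proteasome degrades proteins tagged with ubiquitin. Its barrel, the 20S core, stacks rings of alpha subunits, which gate the entry, around rings of beta subunits, of which Psmb5, Psmb6 and Psmb7 carry the proteolytic sites. Interferon exposure induces the alternative beta subunits Psmb8, Psmb9 and Psmb10, which take the place of Psmb5, Psmb6 and Psmb7 in newly built particles and form the immunoproteasome. Psme1 and Psme2 encode the PA28 cap, also induced by interferon, and the 19S cap of ATPases and lid subunits binds and unfolds ubiquitin-tagged proteins. Immune cells express the immune subunits constitutively, and microglia are a known source of them in the brain.

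The 2 sets of subunits are under different transcription control. Shown first are bases before the starts of 4 members, all of which hold a match to a searched pattern. Of these, Psmb5 and Psmb6 did not pass the test described below, and other members that passed are not shown. Interferon signalling acts through gamma-activated sites, searched as TTCNNNGAA, and interferon response elements, searched as GAAANNGAAA. Constitutive subunits are induced through antioxidant response elements bound by Nfe2l1 or Nfe2l2, searched as TGACNNNGC. Capitals mark a match, sequences run 5′ to 3′ on the gene's strand, and they come from RefSeq on GRCm38.p6.

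Psmb8, a gamma-activated-type match, chr17:34198088-34198117, plus strand: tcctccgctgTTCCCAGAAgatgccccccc

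Psmb5, an antioxidant-type match, chr14:54618023-54618245, minus strand: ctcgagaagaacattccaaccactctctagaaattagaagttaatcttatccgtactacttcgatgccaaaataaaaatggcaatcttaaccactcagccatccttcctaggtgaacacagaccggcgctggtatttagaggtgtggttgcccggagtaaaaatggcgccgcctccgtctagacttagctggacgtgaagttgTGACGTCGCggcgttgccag

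Psmb6, an antioxidant-type match, chr11:70525327-70525356, plus strand: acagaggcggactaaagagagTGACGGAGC

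Psmd9, an interferon-type and an antioxidant-type match, chr5:123227940-123228189, plus strand: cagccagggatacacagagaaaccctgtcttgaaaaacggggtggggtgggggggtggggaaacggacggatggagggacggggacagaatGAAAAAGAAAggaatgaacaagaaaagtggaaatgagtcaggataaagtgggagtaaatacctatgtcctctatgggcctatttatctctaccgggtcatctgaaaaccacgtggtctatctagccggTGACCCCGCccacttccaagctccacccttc

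All 3 patterns were searched on both strands in the 250 bases before the start, for which 33 members had an entry. TTCNNNGAA stood before 1 member, Psmb8, at bases 97 to 89 before its start, and before 7.02% of all 32851 starts. GAAANNGAAA stood before Psmb3, Psmd4 and Psmd9, none of them immune, and before 2.98% of all starts. TGACNNNGC stood before Psmb5, Psmb6, Psmc6, Psmd12 and Psmd9, and before 10.2% of all starts. The immune members Psmb9, Psmb10, Psme1 and Psme2 had an entry and held no match in these bases. Bases 250 to 1 before the Psmb8 start lie in exons of longer annotated Psmb8 transcripts, and the 27 bases nearest to the Psmb5 start, also in an annotated exon, are left out. These are letter matches, and binding was not measured.

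Several immune subunits were lower in APPPS1;Apoe-/- cortex, while most constitutive subunits did not pass the test in either direction. Of the 5 immune members 3 fell (Psmb8, Psmb10 and Psme2), 0 rose, and all 5 had estimates below 0, with a median change of -0.23. Of the 34 constitutive members 3 rose (Psmd9, Psmc1 and Psmd14), 1 fell (Psmd8) and 30 did not pass the test. Their median change was 0.07, with 26 of 34 estimates (76.5%) above 0, against 47.7% over all genes tested. A change is the limma estimate, on the log2(RPKM + 0.5) scale, of the APPPS1;Apoe-/- level less the APPPS1 level, called at a Benjamini-Hochberg adjusted p under 0.05. Over all 13343 genes tested, 8.23% were called, 4.74% lower and 3.48% higher, and the median change was -0.0077. Of all calls 57.6% were lower, against 43.1% after centring libraries on their median and 46.9% after quantile normalisation. The immune members had estimates below 0 in 5 of 5 under both scalings, and the constitutive members above 0 in 31 and 25 of 34. Over all 13343 genes, 7421 and 7316 estimates were above 0 under the same scalings. At an unadjusted p under 0.05 all 5 immune members were lower and 0 higher, and 7 constitutive members were higher and 2 lower. Over all 13343 genes, 3339 had such a p, 1548 higher and 1791 lower. The constitutive count, 9 of 34, was near that share.

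**Figure D1:**
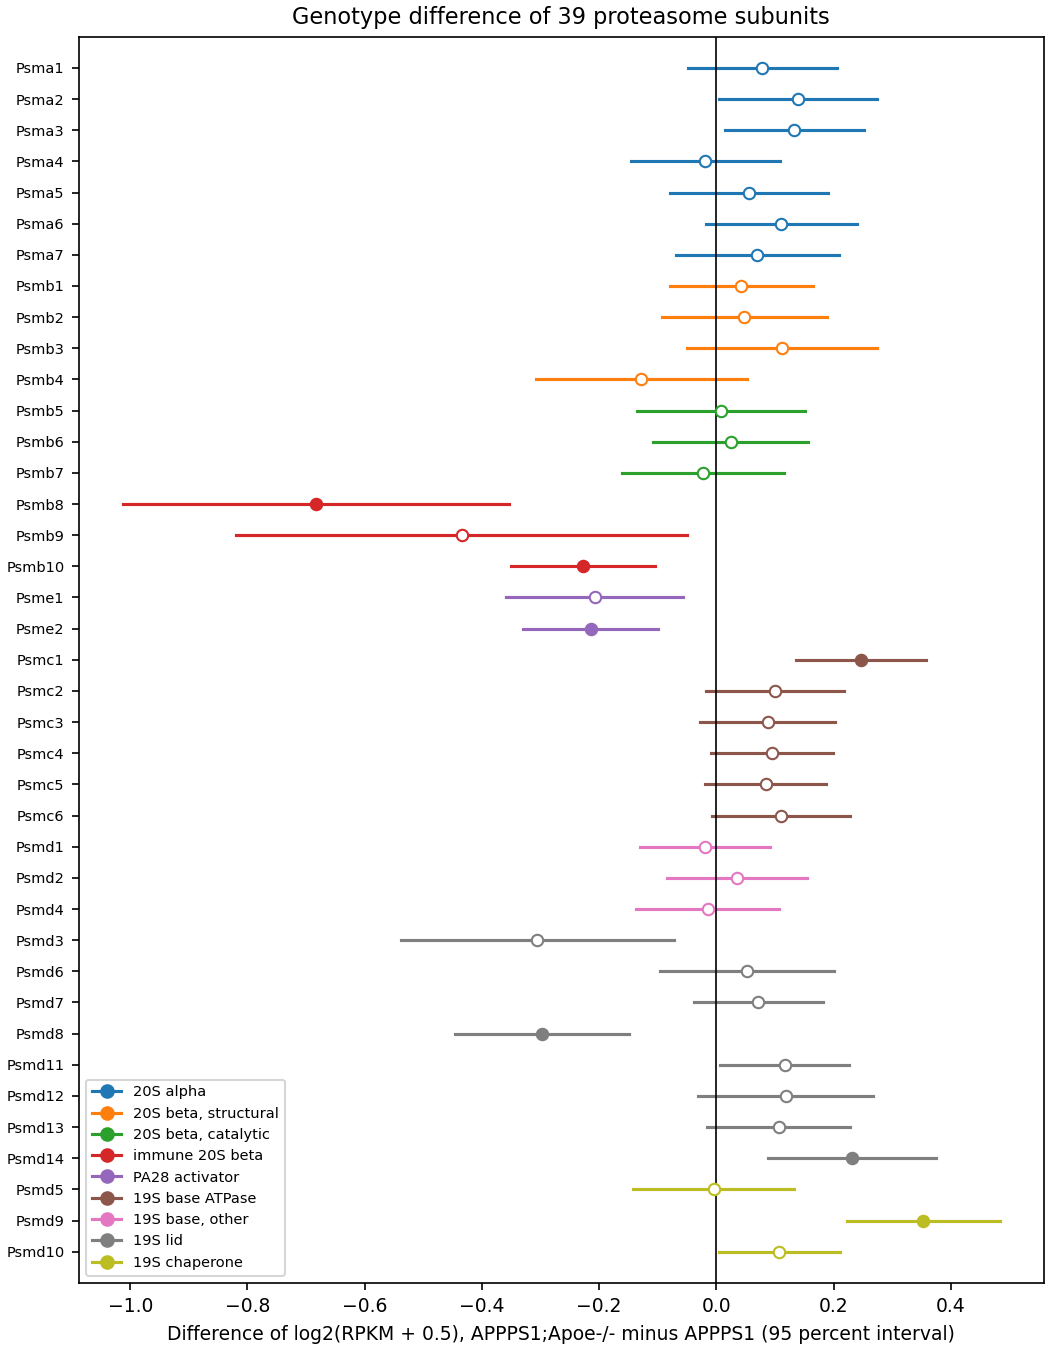
Log2 change (APPPS1;Apoe-/- minus APPPS1) of each of the 39 subunits with its 95% limits from limma, grouped by role; filled symbols passed the adjusted threshold. All 5 immune subunits lie left of 0, and the constitutive estimates lie between -0.31 and 0.35.

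Psmb8 encodes the immune counterpart of Psmb5, cleaving after hydrophobic residues, and lies at chr17:34197721-34201454 on the plus strand (mm10) in the major histocompatibility region. The lowest, median and highest APPPS1 libraries were at 8.68, 9.39 and 11.8 RPKM, and the lowest, median and highest APPPS1;Apoe-/- libraries at 3.60, 6.14 and 8.56 RPKM. Every APPPS1;Apoe-/- library was below every APPPS1 library. Of all genes tested, 3.72% separated the groups without overlap, and 2.17% separated the groups in this direction. The group means were 9.98 ± 1.43 (SD, n = 6) and 6.19 ± 1.79 RPKM (SD, n = 7), a log2 change of -0.68 ± 0.16 (SE; limma adjusted p = 0.0135). Without APPPS1;Apoe-/- replicates 2 and 5, the 2 lowest libraries, the change was -0.48 (adjusted p = 0.0219). When log2 alignments entered the fit as a covariate, it was -0.67 (adjusted p = 0.114), and 1.51% of all genes were called.

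Psmb9, next to Psmb8 at chr17:34181987-34187764 on the minus strand, encodes the immune counterpart of Psmb6. It did not pass the test. APPPS1 libraries ranged from 4.53 over a median of 5.07 to 6.47 RPKM, and APPPS1;Apoe-/- libraries from 1.98 over a median of 3.90 to 6.82 RPKM. The highest of all 13 libraries was thus APPPS1;Apoe-/- replicate 4, while 5 of the 7 in its group were below the lowest APPPS1 library. The log2 change was -0.43 (95% limits -0.82 to -0.05; limma adjusted p = 0.149). Without APPPS1;Apoe-/- replicate 4 it was -0.57, which passed (adjusted p = 0.0244), and without replicates 2 and 5 it was -0.24 (adjusted p = 0.389).

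Psmb10, the immune counterpart of Psmb7, at chr8:105935735-105938444 on the minus strand, was the most abundant of the 3 immune beta subunits. It ranged from 51.7 over 54.2 to 59.2 RPKM in APPPS1 and from 40.7 over 46.5 to 53.0 RPKM in APPPS1;Apoe-/- libraries. In 6 of 7 APPPS1;Apoe-/- libraries it was below the lowest APPPS1 library. The means were 54.6 ± 2.52 (SD, n = 6) and 46.7 ± 4.13 RPKM (SD, n = 7), a log2 change of -0.23 ± 0.058 (SE; limma adjusted p = 0.0245). Without replicates 2 and 5 it was -0.21 (adjusted p = 0.0438). The call was lost without APPPS1 replicate 2 (adjusted p = 0.0623), after median centring (0.0513) and with the alignments covariate (0.125).

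The PA28 genes Psme1 and Psme2 lie close together on chromosome 14, at 55578123 to 55581529 and 55587441 to 55591113. Psme2 ranged from 35.9 over 37.4 to 41.0 RPKM in APPPS1 and from 28.5 over 33.5 to 35.8 RPKM in APPPS1;Apoe-/- libraries, with no overlap. Its log2 change was -0.21 ± 0.055 (SE; limma adjusted p = 0.0239). It missed the threshold without replicates 2 and 5 (-0.18, adjusted p = 0.0578), with the alignments covariate (adjusted p = 0.152), and when APPPS1 replicate 1, 2 or 6 was left out (adjusted p = 0.0520, 0.0614 and 0.0514). Reads of Psme2 may be shared with its near-identical copy Psme2b, which was at 4.46 and 3.87 RPKM in the 2 groups.

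Psme1 ranged from 37.0 over 39.2 to 45.8 RPKM in APPPS1 and from 28.0 over 35.4 to 39.3 RPKM in APPPS1;Apoe-/- libraries. Its log2 change of -0.21 (95% limits -0.36 to -0.06) was near that of Psme2 but missed the threshold (limma adjusted p = 0.0820). APPPS1;Apoe-/- replicate 2 was the lowest of all 13 libraries for each of the 5 immune members.

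**Figure D2:**
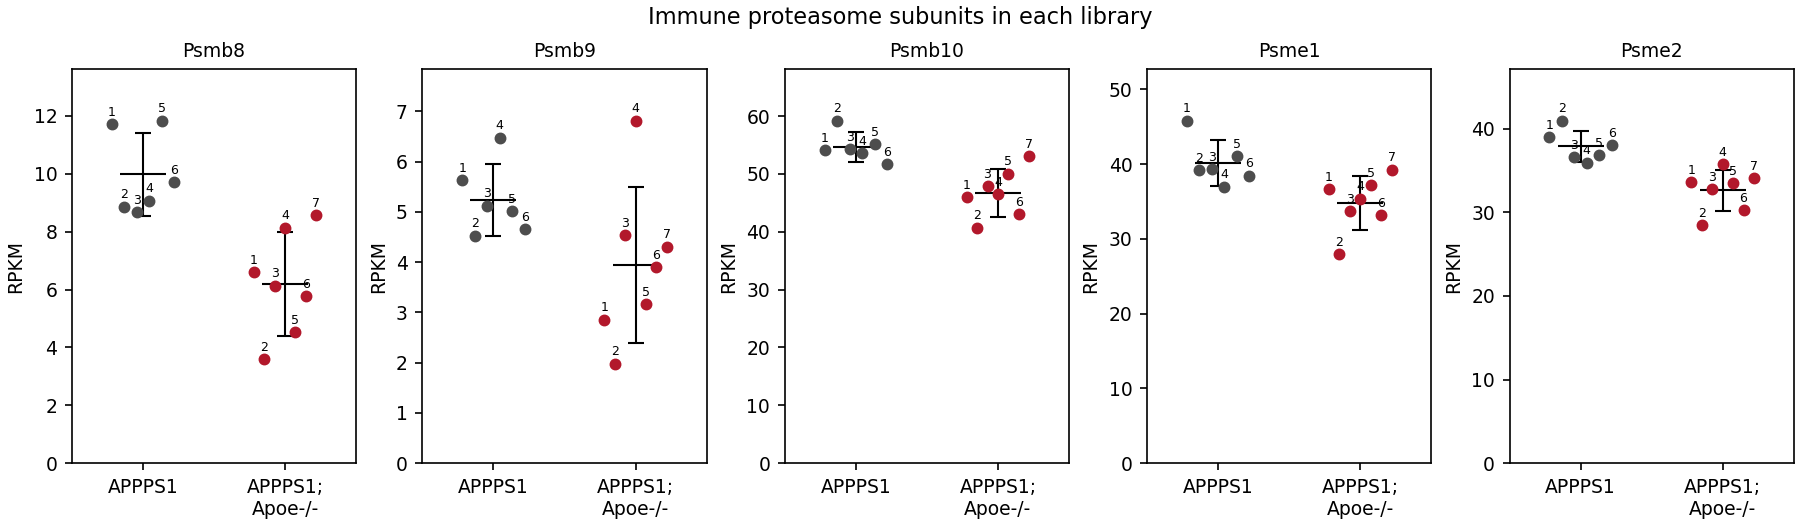
RPKM of the 5 immune subunits in each library, with replicate numbers; horizontal bars are group means and error bars SD (6 APPPS1, 7 APPPS1;Apoe-/-). Psmb8 and Psme2 separate the groups in every library, and replicate 2 is the lowest APPPS1;Apoe-/- library in each panel.

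The 3 genes whose products the immune subunits replace did not pass the test. Psmb5, the chymotrypsin-like subunit, averaged 100.3 ± 6.28 RPKM (SD, n = 6) in APPPS1 and 101 ± 10.9 RPKM (SD, n = 7) in APPPS1;Apoe-/- libraries, with limits on the log2 change of -0.14 to 0.15. For Psmb6, the caspase-like subunit, the means were 189 and 192 RPKM (limits -0.11 to 0.16). For Psmb7, the trypsin-like subunit, they were 134 and 132 RPKM (limits -0.16 to 0.12). Their adjusted p-values from limma were 0.957, 0.848 and 0.870, and 0 of 3 had an unadjusted p under 0.05.

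Each immune subunit was then set against its counterpart within the same library, as the immune share of the pair's summed RPKM. RPKM is scaled by gene length, but reads of overlapping genes and other differences between genes remain. A share is therefore compared between groups, and is not read as a proportion of transcripts. The log2 differences were tested by an exact two-sided permutation of the genotype labels, adjusted over 3 pairs. The 1716 splits allow no p under 0.000583. The alignments covariate was not applied to these pair tests.

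Psmb8 made up 7.82 to 11.2% of the Psmb8 and Psmb5 sum in APPPS1 and 3.55 to 7.70% in APPPS1;Apoe-/- libraries, with no overlap. The mean share was 9.05 ± 1.21% (SD, n = 6) against 5.79 ± 1.60% (SD, n = 7). The log2 difference within the pair changed by -0.69 (exact permutation p = 0.00175, adjusted 0.00524). Without replicates 2 and 5 the change was -0.45 (adjusted exact p = 0.0130), and the result also passed when any 1 library was left out.

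The Psmb10 share was larger, with means of 29.0 ± 2.30% (SD, n = 6) and 26.1 ± 1.46% (SD, n = 7). APPPS1 libraries covered 26.6 to 32.3% and APPPS1;Apoe-/- libraries 24.0 to 27.6%, with 4 of 7 below the lowest APPPS1 library. The pair changed by -0.20 (exact permutation p = 0.0105, adjusted 0.0157). Without replicates 2 and 5 the change was -0.15 (adjusted exact p = 0.120), and without APPPS1 replicate 5 the adjusted p was 0.0530.

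The Psmb9 share was the smallest, 2.71 ± 0.408% (SD, n = 6) and 2.03 ± 0.851% (SD, n = 7). In APPPS1;Apoe-/- replicate 4 it was 3.63%, the highest of all, and the other 6 libraries of that group were below the lowest APPPS1 share of 2.38%. The change of -0.46 did not pass (exact permutation p = 0.0705, adjusted 0.0705), and without replicate 4 it was -0.61 (adjusted exact p = 0.00325). Without replicates 2 and 5 it was -0.23 (adjusted exact p = 0.264).

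**Figure D3:**
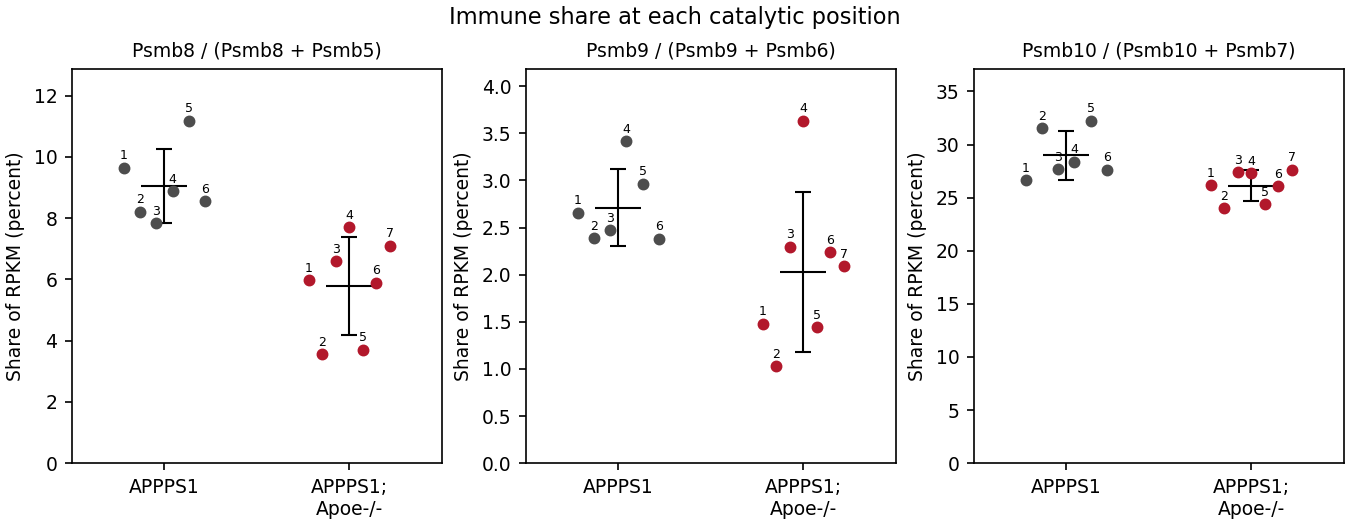
Immune share of the summed RPKM at each catalytic position, in percent, per library, with group means and SD. The Psmb8 share separates the groups, and APPPS1;Apoe-/- replicate 4 has the highest Psmb9 share at 3.63%.

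Markers of microglia, which express the immune subunits, moved in the same direction. Of 15 microglial markers 11 fell and 0 rose, and their summed RPKM ran from 849 to 998 in APPPS1 and from 325 to 670 in APPPS1;Apoe-/- libraries, or from 599 without replicates 2 and 5. The ends of the second range were replicate 2 (325), the lowest for all 5 immune members, and replicate 4 (670), the highest for Psmb9 and Psme2 in its group. Replicate 7 (624) was the highest in that group for Psmb8, Psmb10 and Psme1. In replicate 5 (372), Psmb10 and Psme1 were above the group median, Psmb8 and Psmb9 below it, and Psme2 at it. Replicates 1, 3 and 6 had microglial sums of 599, 608 and 632. The mean log2 deviation of the 5 immune members from their 13-library means was also taken, in order of microglial sum. For replicates 2, 5, 1, 3, 7, 6 and 4 it was -0.59, -0.23, -0.18, -0.10, 0.06, -0.21 and 0.11. Whether the immune subunits moved beyond the microglial markers was not tested. In tissue RNA, fewer cells of a type and less RNA per cell cannot be told apart. T, B and NK cell markers were low, with sums of 2.91 to 7.72 and 3.95 to 8.75 RPKM over 11 genes. Of the 2 abundant enough to be tested 1 was higher and 0 lower, and 6 of the 11 genes, among them Cd3d, Cd8a and Gzmb, were listed at 0 in some libraries. Astrocyte markers summed to 738 to 828.9 against 543 to 736 RPKM (2 of 7 lower), and oligodendrocyte markers to 784 to 1111 against 890 to 1410 RPKM (3 of 6 higher). Their part in the subunit results was not tested.

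Among the other genes of the 20S core no call was made. The 7 alpha subunits had mean levels of 92.3 to 124 RPKM, and 0 of 7 passed the limma test. An unadjusted p under 0.05 was found for 2 (Psma2 and Psma3, both higher), and for 3339 of all 13343 genes. The changes of the alpha subunits lay between -0.02 and 0.14. Of the 4 structural beta subunits 0 passed, adjusted or unadjusted, with changes between -0.13 and 0.11. Psmb1 and Psmb3 were among the 3 most abundant members. Psmb1 averaged 215 and 222 RPKM and Psmb3 192 and 207 RPKM in APPPS1 and APPPS1;Apoe-/- libraries, differences within the spread between libraries (limma adjusted p = 0.697 and 0.392).

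The calls among constitutive members lay in the 19S cap and its assembly. They were 4 of 34, or 11.8%, near the 8.23% over all genes. The largest change was that of Psmd9, a chaperone that brings ATPase subunits together during assembly of the cap base and is not part of the finished particle. Psmd9 lies at chr5:123169413-123250131 on the plus strand in GENCODE. The Psmd9 bases printed above lie inside this span, as they precede a RefSeq start that differs from the start of the span. Psmd9 ranged from 7.68 over 8.39 to 9.50 RPKM in APPPS1 and from 9.68 over 10.8 to 12.3 RPKM in APPPS1;Apoe-/- libraries, so that all 7 lay above the highest APPPS1 library. Of all genes tested 1.54% separated the groups in this direction. The log2 change was 0.35 ± 0.062 (SE; limma adjusted p = 0.00305), 0.31 without replicates 2 and 5 (adjusted p = 0.0117) and 0.40 with the alignments covariate (adjusted p = 0.0258). Psmd9 was the 1 member of 7 called that stayed called with that covariate. The other chaperones, Psmd5 and Psmd10, did not pass (changes of -0.0042 and 0.11).

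Psmc1, an ATPase of the base, lies at chr12:100110154-100123405 on the plus strand. It ranged from 158 over 164 to 178 RPKM in APPPS1 and from 179.7 over 198 to 219 RPKM in APPPS1;Apoe-/- libraries. The groups did not overlap, though APPPS1;Apoe-/- replicate 4 lay just above APPPS1 replicates 1 and 3. The log2 change was 0.25 ± 0.052 (SE; limma adjusted p = 0.00870), 0.22 without replicates 2 and 5 (adjusted p = 0.0283), and the adjusted p was 0.0806 with the alignments covariate. All 6 ATPases had estimates above 0, between 0.08 and 0.25, and 1 of 6 passed. Psmc5, the most abundant member, averaged 262 and 278 RPKM (adjusted p = 0.300). Of the base subunits that are not ATPases, Psmd1, Psmd2 and Psmd4, 0 of 3 passed, adjusted or unadjusted.

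Of the 8 lid subunits 1 rose and 1 fell. Psmd14, the enzyme that removes ubiquitin chains from substrates, ranged from 79.6 over 85.1 to 96.5 RPKM in APPPS1 and from 86.0 over 103 to 118 RPKM in APPPS1;Apoe-/- libraries. All but replicate 4 of the second group lay above the highest APPPS1 library. Its log2 change of 0.23 (limma adjusted p = 0.0453) missed the threshold in 16 of 25 alternatives, among them the one without replicates 2 and 5 (0.18, adjusted p = 0.136).

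Psmd8, a structural subunit of the lid, was the constitutive member that fell. It ranged from 69.3 over 72.6 to 79.5 RPKM in APPPS1 and from 49.1 over 58.1 to 71.2 RPKM in APPPS1;Apoe-/- libraries, with 6 of 7 below the lowest APPPS1 library. The log2 change was -0.30 ± 0.070 (SE; limma adjusted p = 0.0162), -0.34 without replicates 2 and 5 (adjusted p = 0.00958) and -0.34 with the alignments covariate (adjusted p = 0.0729). Psmd8 lies at chr7:29174188-29180701, 9.475 Mb from Apoe. In a targeted line, flanking sequence of the donor strain can remain around the targeted gene, and of 439 genes tested within 30 Mb of Apoe, 19.8% were called. The other member in that interval, the ATPase gene Psmc4 at 8.343 Mb, did not pass, at 115 ± 6.97 (SD, n = 6) and 123 ± 5.87 RPKM (SD, n = 7; adjusted p = 0.246). Strain sequence was not tested. Psmd3, the least abundant constitutive member, had a change of similar size that missed the threshold, from 7.89 ± 1.12 to 6.31 ± 1.05 RPKM (log2 change -0.31, limits -0.54 to -0.07, adjusted p = 0.0976).

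**Figure D4:**
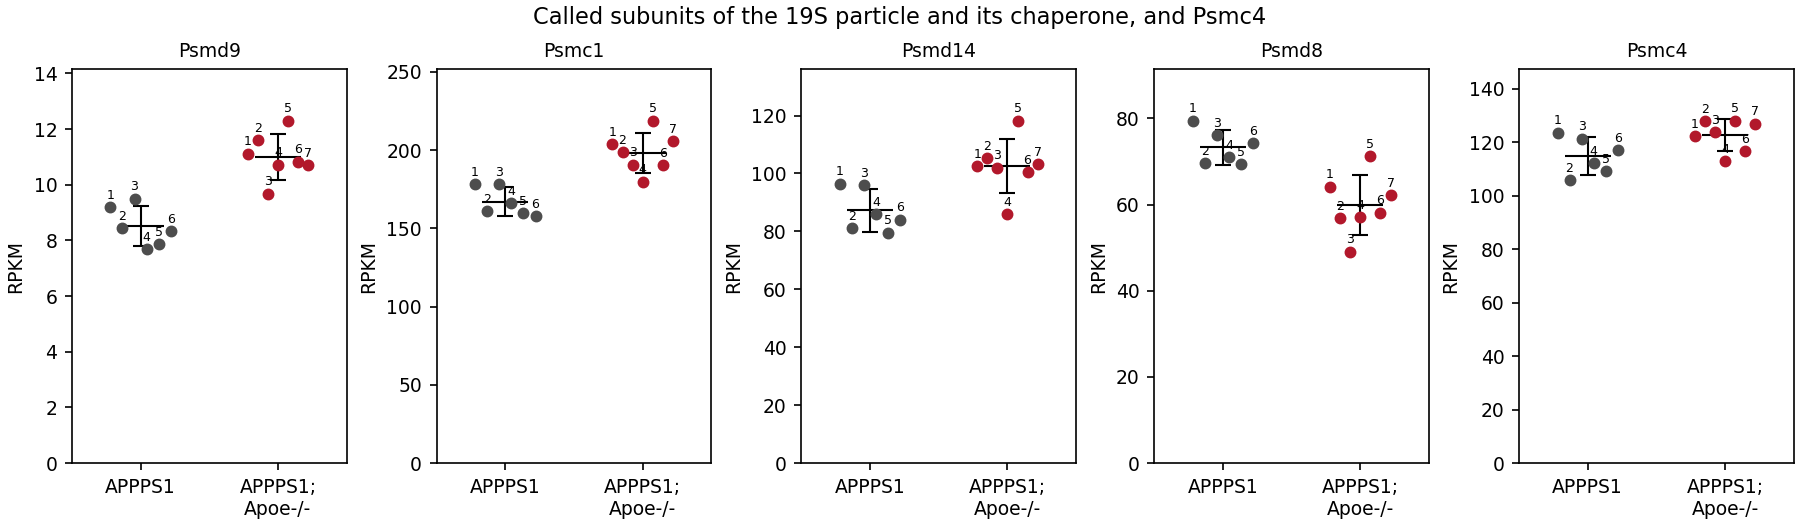
RPKM per library of the 4 constitutive subunits that passed the test and of Psmc4, with group means and SD. Psmd9 and Psmc1 are higher and Psmd8 lower in APPPS1;Apoe-/- libraries, and Psmc4, which also lies near Apoe, overlaps.

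Constitutive subunits varied together from library to library. After the group means were removed, the median Pearson correlation over the 13 libraries was 0.716 among 561 pairs of constitutive members and 0.659 among 10 pairs of immune members. Between immune and constitutive members it was 0.017 over 170 pairs, and between all genes 0.012. These values describe pairs that share libraries and depth, and carry no test. APPPS1;Apoe-/- replicate 5 was the highest of all 13 libraries for 27 of 34 constitutive members. It also had the fewest alignments (18455493), low App, and the highest sums of oligodendrocyte, striatal and neuronal markers. At the other end, APPPS1 replicate 5 was the lowest of all libraries for 13 members and APPPS1 replicate 2 for 9. Without APPPS1;Apoe-/- replicates 2 and 5 the median constitutive change was 0.04, with 24 of 34 estimates above 0. Over all 13343 genes, 6245 estimates were above 0 in that fit.

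The mean log2 deviation of the immune members, less that of the constitutive members, was between 0.10 and 0.36 in the 6 APPPS1 libraries. In APPPS1;Apoe-/- libraries it was between -0.61 and 0.19, and replicate 4 was the one above 0.

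**Figure D5:**
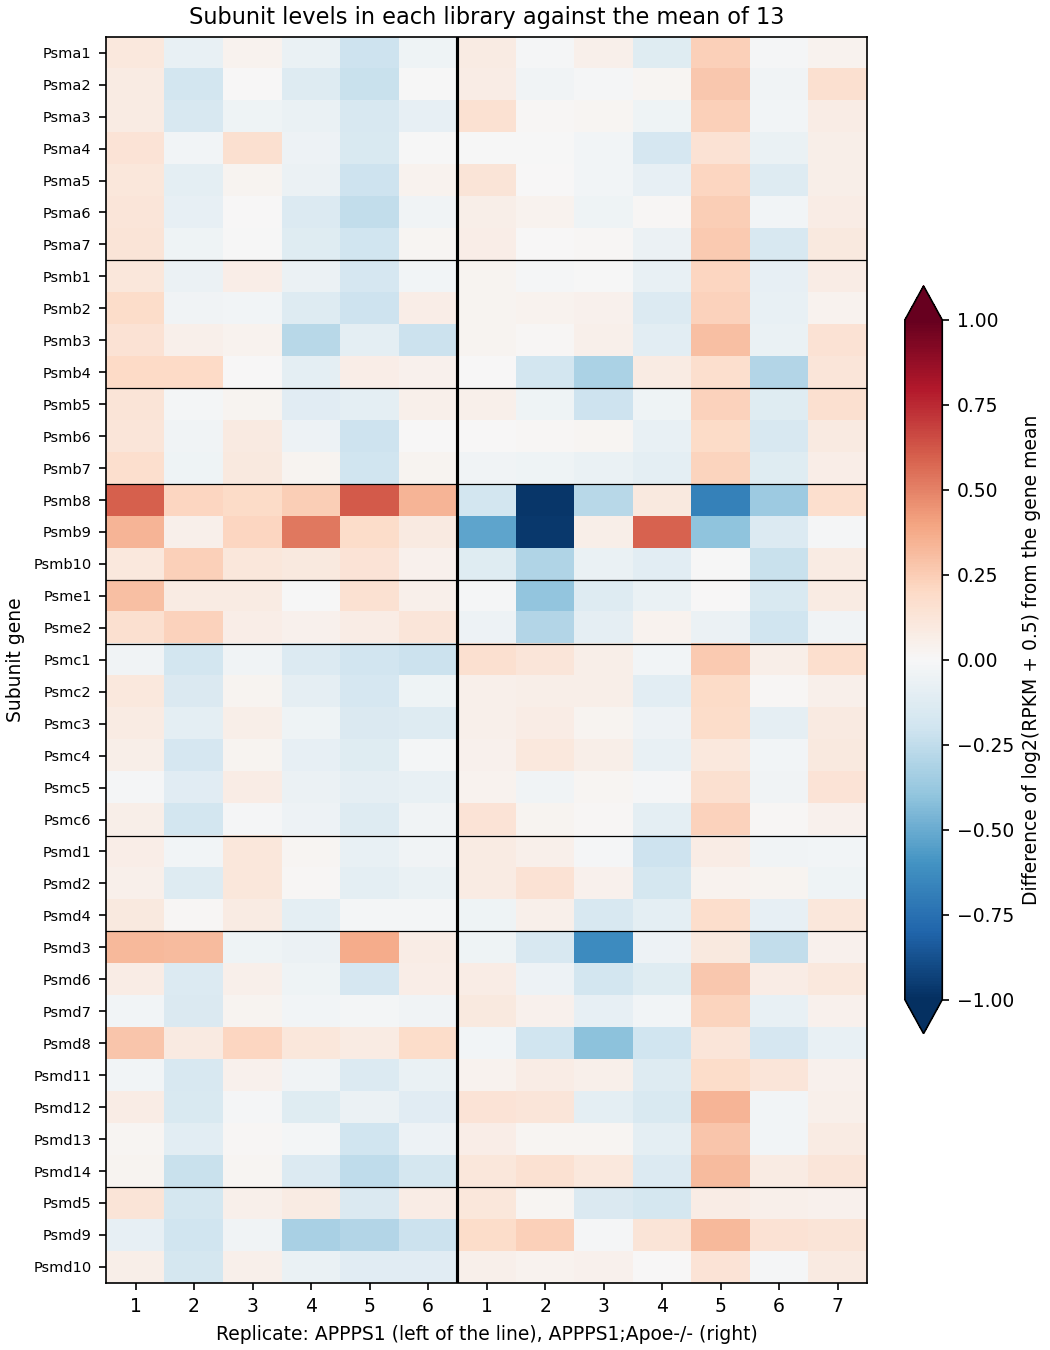
Difference of log2(RPKM + 0.5) from the mean of 13 libraries for each subunit (rows, by role) and library (columns, APPPS1 left of the line). Most constitutive rows are highest in APPPS1;Apoe-/- replicate 5, and the 5 immune rows are lowest in replicate 2.

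Genes that work with the proteasome or regulate its subunits were taken from 4 lists. Of 19 other caps, assembly factors and associated proteins tested, 0 passed the limma test, and the median change was -0.0022. An unadjusted p under 0.05 was found for 3 of the 19, and for 3339 of all 13343 genes. Psme3, the PA28 gene not induced by interferon, was at 13.1 ± 0.704 (SD, n = 6) and 13.1 ± 0.806 RPKM (SD, n = 7), with limits of -0.11 to 0.11. Of 7 tested regulators of constitutive subunit transcription 0 passed and 1 (Nfe2l2, lower) had an unadjusted p under 0.05. Nfe2l1, which raises transcription of the constitutive subunits when the proteasome is inhibited, averaged 15.7 and 14.0 RPKM (log2 change -0.16, adjusted p = 0.237).

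Of 13 tested regulators of the immune subunits, the genes of interferon receptors and signalling, 6 fell and 0 rose, with a median change of -0.20. Irf8, a transcription factor of microglia and other myeloid cells, fell from 2.82 ± 0.475 (SD, n = 6) to 1.30 ± 0.263 RPKM (SD, n = 7), with no overlap (limma adjusted p = 0.000134). Irf7, an amplifier of the type I interferon response, fell from 5.30 ± 1.61 to 2.30 ± 0.735 RPKM (adjusted p = 0.00358). Irf9, a DNA-binding factor of the type I interferon response, fell from 7.65 ± 1.52 to 4.53 ± 1.17 RPKM (adjusted p = 0.0101), and the interferon-gamma receptor chain Ifngr2 from 15.4 ± 1.40 to 12.4 ± 0.885 RPKM (adjusted p = 0.00805).

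Irf1, a direct activator of immune subunit genes, did not pass, at 3.07 ± 0.342 and 2.84 ± 0.222 RPKM (limma adjusted p = 0.408). Nlrc5, the activator of class I genes, was at 0.158 and 0.110 RPKM, under the level tested.

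Peptides made by the proteasome are carried and loaded onto class I molecules by 9 tested genes, of which 2 fell and 0 rose. Tapbp, which encodes the loading chaperone tapasin, fell from 11.9 ± 0.876 (SD, n = 6) to 9.22 ± 0.856 RPKM (SD, n = 7), with no overlap (limma adjusted p = 0.00401). B2m, the class I light chain, fell from 302 ± 43.7 to 218 ± 43.7 RPKM (adjusted p = 0.0348) and missed the threshold in 10 of 25 alternatives, among them the one without replicates 2 and 5 (-0.32, adjusted p = 0.0630). The peptide transporter gene Tap1, beside Psmb9, was at 0.956 and 0.695 RPKM (adjusted p = 0.0887). Irf8, Irf7 and Tapbp stayed called with the alignments covariate (adjusted p = 0.00522, 0.0187 and 0.0230).

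Some members overlap other genes on the opposite strand. Among these overlaps were Psmb8 with Gm20496 (2139 bases), Psmb9 with Tap1 (212 bases) and Psmb10 with Gm16156 (2710 bases). Others were Psmb7 with Nek6 (6571 bases) and Psmd9 with Hpd (10921 bases) and Gm26745 (61459 bases). These are overlaps of whole gene spans with their introns, and overlap of exons was not checked. Whether counting used strand is not given in the sources used here, so reads from shared bases, if any, cannot be told apart.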

How the data were processed

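RNA was extracted with Trizol and libraries made with the Clontech SMARTer kit, per the labels' protocols. The authors deposited RPKM per gene in 1 table and a count of alignments per library. Partek and mm10 are named in the submitters' processing notes; for aligner, counting rule and strand the setting used is not given in the sources used here. The RPKM scale removes depth and gene length but not sampling error.

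Values were taken as log2(RPKM + 0.5). Genes averaging 0.5 RPKM or more, 13343 in all, were fitted with limma 3.58.1 in R 4.3.3 (lmFit, eBayes with trend, genotype as the only term; two-sided; Benjamini-Hochberg over all genes). In a simulated comparison of 13 libraries and 13343 genes, noise was drawn independently for each gene and library. There, 77% of changes of 0.5 and 99% of changes of 1 were recovered, with 7 false among 183 calls. Smaller changes, as in all members but Psmb8, were not simulated, nor was variation shared between genes. Pairs were tested by exact permutation in Python 3.11.15 with scipy 1.17.1. Positions are from GENCODE mouse release 21, in which 39 of 39 members matched.

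The members and lists were chosen with earlier results of these data known. Named were the immune members and their counterparts, called members, the 3 most and least abundant, those within 30 Mb of Apoe, up to 4 called genes per list, and Psme3, Nfe2l1, Irf1 and Nlrc5; some of these are not reported here. Psma2, Psma3, Psmd1, Psmd2, Psmd4, Psmd5, Psmd10, Nfe2l2, Tap1 and Psme2b were added after their values were seen. Other pseudocounts, filters, scalings, variance models, an Xist covariate, and leaving out each library were tried. So were leaving out both low-App libraries and the alignments covariate, chosen from earlier results of these data; their combination was added after seeing the data.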

Additional observations from a re-analysis of the deposited data

How the results depend on the processing

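In 25 alternatives, 0 of 27 named genes were called in the direction opposite to their main estimate. For 15 the outcome, called or not called, was the same throughout, and most of these were never called. Of the 14 named genes called as reported, 4 stayed called with the alignments covariate (Psmd9, Irf8, Irf7 and Tapbp). The 7 called members kept their sign in all alternatives, while estimates of the uncalled Psmb5, Psmb6, Psmb7 and Psme3 changed sign. With the alignments covariate, alone or without both low-App libraries, 0 immune members were called lower, 1 constitutive member higher (Psmd9) and 0 lower. At an unadjusted p under 0.05, 4 and 3 immune members were lower in these 2 fits, and 1376 and 1378 of all 13343 genes. Calls over all genes numbered 1098 as reported, 202 with the covariate, 677 without both low-App libraries and 281 with both. Leaving out 1 library gave 711 to 1594 (without APPPS1 replicate 6 and APPPS1;Apoe-/- replicate 4). Depth differs between the groups, so the covariate and genotype can be told apart only in part. With 1 library left out in turn, immune calls numbered 1 (without APPPS1 replicate 2) to 4, constitutive calls higher 2 to 3 and lower 1. The Psmb8 and Psmb5 pair changed by -0.77 to -0.59, Psmb9 and Psmb6 by -0.61 to -0.33, and Psmb10 and Psmb7 by -0.24 to -0.16. Without both low-App libraries the pairs changed by -0.45, -0.23 and -0.15, in that order (adjusted exact p = 0.0130, 0.264 and 0.120). The causes were not tested. No paired analysis was possible because the labels give the libraries no replicate numbers shared between the groups.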
